A study of Spinacia oleracea with 24 samples.

Results

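Leaves of low-nitrogen spinach were compared between the middle of the light period and the middle of the dark period. The plants were Spinacia oleracea of the cultivar Space, 48 days old and kept under 8 h of light per day. Those described first received 50 ppm nitrogen (LN), and plants at 200 ppm nitrogen (HN), sampled at the same times, are used for comparison. The messenger RNA of 3 plants in the light and 3 plants in the dark gives 6 LN libraries out of 24, and genes entered the comparison with an FPKM (fragments per kilobase of gene length, scaled for library size) of at least 1 in at least 3 of these 6 libraries. That left 16878 of the 25494 genes in the deposited table. All groups share the cultivar, the age and the short light period, and they differ in nitrogen supply and time. The labels name 3 independent plants for each group, all sampled on 1 day, and do not say if equal replicate numbers mark 1 plant sampled again. Light 1 to 3 and dark 1 to 3 below are the LN plants in the order of their replicate numbers.

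The 6 libraries held between 18369094 and 21971469 fragments. Dark 3 stood apart from its mates: its mean correlation with the other dark plants in log2(FPKM + 1) was 0.903, against 0.932 for dark 1 and 0.93 for dark 2 and between 0.949 and 0.958 in the light. Its FPKM values also summed to 653215, below 781971 and 790577 in the other dark plants and 838236 to 925069 in the light. Counts of the antenna, photosystem and chlorophyll lists are therefore given with and without it. For most other lists the range of calls with each of the 6 libraries left out in turn is given, always on the authors' scaling. The labelled tissue was checked against leaf genes. RBCS2 (Spo12437), the small subunit of Rubisco, stood at 8599.9, 9149.9 and 6716 FPKM in the light and 9055, 7749 and 4772 in the dark, among the highest levels of the table in both groups. Names of genes are those of the most similar Swiss-Prot protein in the deposited table, mostly from Arabidopsis, so the roles given are those of the named protein in its own species.

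A leaf passes each day between photosynthesis and the use of stored starch, and much of its transcriptome follows. Light acts through photoreceptors and the chloroplast, while the circadian clock, a set of transcription factors that repress or activate each other in turn, times genes to morning, evening or night even without a light signal. Antenna proteins bind chlorophyll and feed light energy to the photosystems, and their genes are among the classic targets of both inputs. Nitrogen supply matters because chlorophyll, the antenna and Rubisco hold much of a leaf's nitrogen. Samples taken at single times in light and in dark do not separate the light signal from the clock.

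In LN plants, 13 of 22 antenna genes, 9 of 25 chlorophyll genes and 7 of 33 carotenoid and isoprenoid genes were higher in the light, and on the authors' scaling 0 were lower. Clock genes split, with LHY, LNK1, LNK2 and GI among 7 higher and APRR1, ELF3 and JMJ30 among 6 lower. Of 30 genes of sucrose synthesis, cleavage and transport 4 were lower, SPS1 among them. Of the 16878 genes, 799 were higher in the light and 628 lower at an adjusted p under 0.05 (limma, Benjamini-Hochberg over all genes), which is 8.45% of genes called, 4.73% higher and 3.72% lower. On the authors' scaling, genes higher in the light changed more: their median log2 change was 1.19, with 511 at 2-fold or more, 151 at 4-fold or more and 19 at 16-fold or more. Among the genes lower in the light the median size was 0.91, with 240, 25 and 2 genes past the same sizes. All log2 changes are light minus dark on the log2(FPKM + 1) scale, which understates changes of low genes. In bulk leaf samples, fewer cells of a type and less RNA per cell cannot be told apart.

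The count and its balance depended on several choices. With every library scaled to an equal sum of FPKM, the median log2 change over all genes went from -0.003 to -0.225, and 799 higher and 628 lower (56% higher) became 487 higher and 1550 lower (23.9% higher). The changes given here, and the median sizes of called changes above, are relative to the authors' scaling. When the fit held the 6 compared libraries alone, 346 were higher and 148 lower (70% higher), and with a 2-fold minimum 511 and 240 (68% higher). The number of calls was 791 without light 1, 586 without light 2, 491 without dark 1 and 1455 without dark 3. Lost calls of single genes are given below for left-out libraries, and for other alternatives only where stated.

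**Figure D1:**
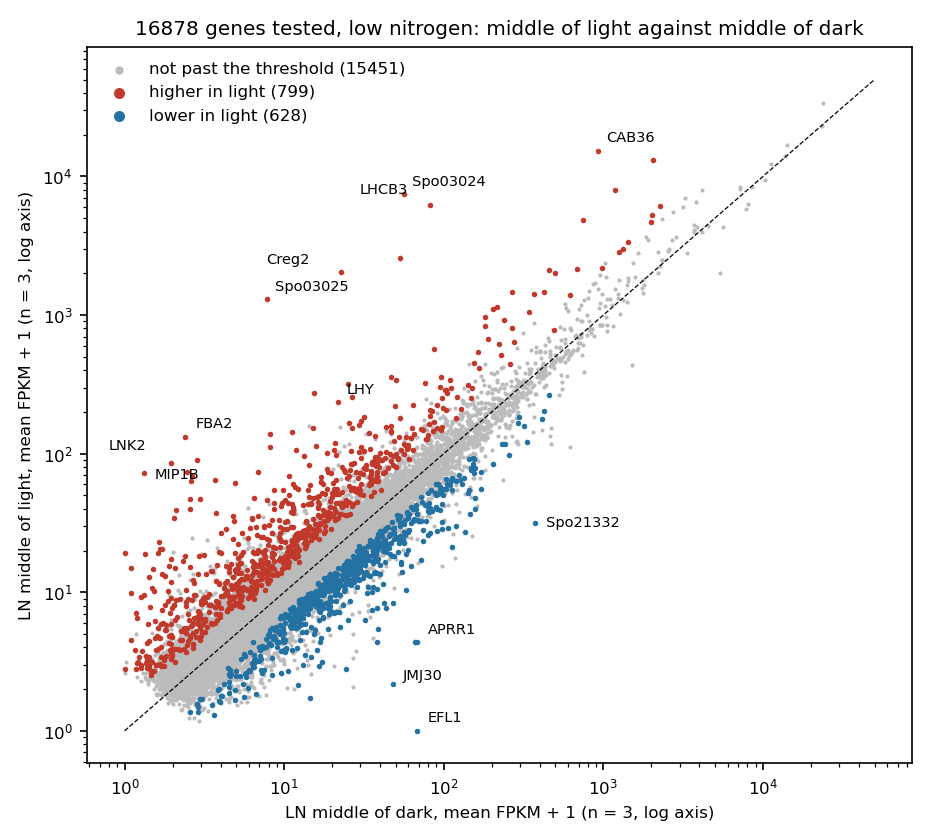
Each point is 1 of the 16878 genes tested, with its mean FPKM + 1 in the 3 dark plants on the x axis and in the 3 light plants on the y axis, both logarithmic; 799 genes higher in the light are red, 628 lower ones blue, and the dashed line marks equal levels. Antenna genes such as CAB36 and LHCB3 combine a large change with a level above 1000 FPKM in the light, while EFL1, JMJ30 and APRR1 lie far below the line.

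The other LN times place these changes in the day. Of the 799 genes higher in the light, 471 (58.9%) had their highest LN mean in the middle of the light, 250 (31.3%) at the end of the light and 78 (9.76%) at the end of the dark. Their lowest mean fell in the middle of the dark for 502 (62.8%) and at the end of the dark for 259 (32.4%). The 628 genes lower in the light mirrored this, with the highest mean in the middle of the dark for 375 (59.7%) and at the end of the dark for 225 (35.8%). Over all genes tested, 20.8% had the highest LN mean in the middle of the light, 27.4% at the end of the light, 21.2% in the middle of the dark and 30.6% at the end of the dark. Of these genes 19.1% had the lowest mean in the middle of the dark and 31.5% at the end of the dark. The end-of-light share of highest means and the end-of-dark share of lowest means among the genes higher in the light were thus near those of all genes. The classes of called genes follow in part from the call itself, since a gene called higher in the light cannot have its highest mean in the middle of the dark.

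Clock genes held the clearest calls. Of 28 list members 24 were tested, and 7 were higher and 6 lower in the light, 54.2% against 8.45% of all genes. The smallest adjusted p of the whole comparison belonged to 3 genes, LNK2, APRR5 and an unnamed gene, Spo15293. LNK1 and LNK2 encode coactivators that work with the morning factors of the clock. LNK2 (Spo06774) stood at 64.2, 108 and 82.2 FPKM in light 1 to 3 and at 0.586, 1.32 and 0.982 in dark 1 to 3 (log2 change 5.43, SE 0.24, adjusted p = 1e-11). LNK1 (Spo07301, chromosome 4, 102730061 to 102737719 of Sp75) stood at 90.3, 91 and 87.7 against 0.545, 3.68 and 1.33 (log2 change 5.14, SE 0.26, adjusted p = 9.7e-11). Neither gene's groups came near each other, and dark 2 held the highest dark value of both.

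The pseudo-response regulators, repressors that act one after another from morning to evening, split by their place in that sequence. APRR5 (Spo01087, chromosome 2, 59149263 to 59155260 of Sp75) was at 32.4, 43.7 and 40.8 FPKM in the light and 1.44, 1.88 and 1.42 in the dark (log2 change 3.95, SE 0.18, adjusted p = 1e-11), and another gene of that name, Spo22291, at 19.1, 19 and 28.1 against 0.65, 0.592 and 0.718 (log2 change 3.78, SE 0.45, adjusted p = 2.3e-05). PRR73 (Spo13065), named after a rice regulator of the same family, was at 55.8, 56.8 and 57.2 and 8.72, 13.9 and 9.36 (log2 change 2.33, SE 0.27, adjusted p = 2.1e-05). APRR1 (Spo08124), the evening member also called TOC1, ran the other way, at 2.42, 2.51 and 5.21 in the light and 104, 62.2 and 29.7 in the dark (log2 change -3.81, SE 0.49, adjusted p = 6.7e-05). In each of these 4 genes every light plant lay on one side of every dark plant. Over all genes tested, 14.0% had every light value above every dark value and 14.4% every light value below. LHY (Spo01117), the morning MYB factor, was at 221, 269 and 211 in the light, below its end-of-dark mean of 1178 ± 253 (mean ± SD, n = 3), and at 16.2, 24.3 and 21.7 in the dark (log2 change 3.44, SE 0.30, adjusted p = 2.9e-07). GI (Spo04360), which stabilises a blue-light receptor in the evening, was at 27.2, 41.2 and 40.2 against 3.87, 2.3 and 2.08 (log2 change 3.32, SE 0.32, adjusted p = 1.7e-06), with its highest LN mean, 85.9 ± 21.7, at the end of the light.

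APRR1 belonged to the 6 clock genes lower in the light. EFL1 (Spo11195, chromosome 1, 26460409 to 26460852 of Sp75), named after an ELF4-like protein, had 0 fragments in the 3 light plants and 1942 in the 3 dark plants, at 122, 51.9 and 26.6 FPKM. Taking 3 fragments over the light group as the limit of a count of 0, which is a mean of 0.113 FPKM, its light level was at least 590-fold lower than the dark mean of 66.7 (adjusted p = 8.4e-09). JMJ30 (Spo15731), a histone demethylase that peaks in the evening in Arabidopsis, was at 1.05, 0.839 and 1.64 against 85.8, 27.3 and 27.7 (log2 change -4.26, SE 0.65, adjusted p = 0.00047). RVE1 (Spo19963), a MYB factor that links the clock to auxin synthesis, was at 13.9, 13.1 and 12.1 against 52.9, 64.9 and 43.7 (log2 change -1.95, SE 0.28, adjusted p = 0.00028). ELF3 (Spo14415), the scaffold of the evening complex, moved least of these, from 24.6, 19.6 and 22.5 in the dark to 10.4, 10.6 and 13.7 in the light (log2 change -0.89, SE 0.19, adjusted p = 0.0069). Dark 1 held the highest value of EFL1, APRR1 and JMJ30 and dark 3 the lowest of EFL1 and APRR1. The remaining clock call, BOA (Spo00124), was log2 change -1.02, SE 0.31, adjusted p = 0.046, and its lowest dark value of 15.5 lay inside the light range. BOA lost its call without light 1, 2 or 3 or dark 1 or 2 (adjusted p up to 0.25).

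Clock members without a call included RVE8 (Spo04754, log2 change 0.65, adjusted p = 0.2), ADO3 (Spo25748, 0.38, adjusted p = 0.6) and another gene named EFL1 (Spo21006), whose means of 14.1 ± 1.18 in the light and 14.5 ± 3.26 in the dark gave a log2 change of -0.02 (adjusted p = 0.96). Over all 24 tested members the median log2 change was 0.01, beside 0.00 over all genes, because higher and lower members balanced.

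**Figure D2:**
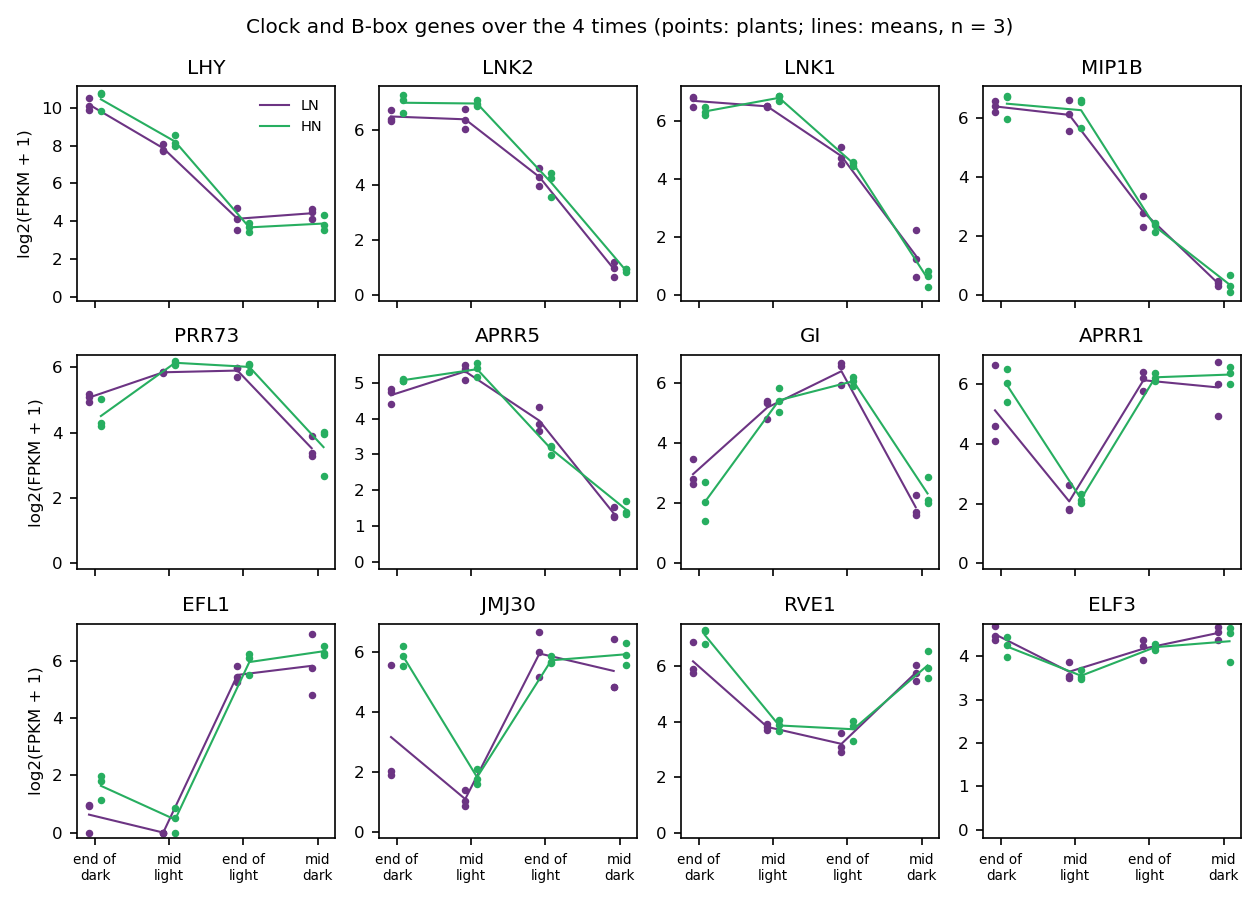
Levels of 12 clock and B-box genes, as log2(FPKM + 1), at the end of dark, middle of light, end of light and middle of dark; points are plants and lines join group means (n = 3), with LN in purple and HN in green. From LHY to GI the middle-of-light values lie above the middle-of-dark values, from APRR1 to ELF3 below them, at both nitrogen levels; for JMJ30 the LN end-of-dark plants spread widely.

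Genes that carry clock and light information to flowering and growth were also called in both directions. In the list of cyclic Dof factors, CONSTANS-like, B-box and PIF genes, 6 of 18 tested members were higher and 6 lower. That is 66.7% called, beside 8.45% of all genes. MIP1B (Spo03899, chromosome 1, 46726048 to 46726809 of Sp75), a small B-box protein that binds CONSTANS in Arabidopsis, was at 46.7, 98.6 and 70.3 FPKM in the light and 0.242, 0.329 and 0.396 in the dark (log2 change 5.72, SE 0.30, adjusted p = 1.2e-10). BBX19 (Spo05036), which delays flowering in Arabidopsis by binding CONSTANS, was at 100.1, 119 and 133 against 14, 21.2 and 23.8 (log2 change 2.54, SE 0.20, adjusted p = 7.2e-08). BBX24 (Spo19461), a B-box repressor of light-grown development, was at 64.7, 71.4 and 69.4 against 6.63, 9.17 and 13.4 (log2 change 2.74, SE 0.23, adjusted p = 2.9e-07). CDF3 (Spo08108), a Dof factor that represses CONSTANS, was at 54.8, 71.5 and 73 against 16, 12.6 and 19.2 (log2 change 2.0, SE 0.25, adjusted p = 5.5e-05). In all 4 genes the lowest light value was above the highest dark value, as in 14.0% of all genes tested. The most abundant member, COL2 (Spo12296), averaged 233 ± 26.9 in the light and 255 ± 115 in the dark (log2 change -0.01, adjusted p = 0.99).

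In the list of photoreceptors and light signalling 6 of 31 tested members were higher and 1 lower (22.6% called, beside 8.45% of all genes). The counts were 4 and 3 with the common sum of FPKM (3 to 8 calls with 1 library left out). COP1 (Spo13615), the ubiquitin ligase that destroys light-signalling factors in darkness, was at 17.5, 22.6 and 14.8 in the light against 6.19, 5.42 and 4.92 (log2 change 1.55, SE 0.24, adjusted p = 0.00041). CRY1 (Spo23854), a blue-light receptor, was at 200.8, 210.2 and 219 against 118, 119.6 and 143 (log2 change 0.73, SE 0.17, adjusted p = 0.014), and UVR8 (Spo26189), the ultraviolet-B receptor, at 53.2, 84.7 and 66.7 against 39.6, 40.6 and 31.7 (log2 change 0.84, SE 0.20, adjusted p = 0.012). The largest change of the list was ELIP1 (Spo12385), an early light-induced chlorophyll binder, at 31, 97.5 and 63.6 against 3.26, 1.01 and 3.81 (log2 change 4.09, SE 0.88, adjusted p = 0.0072). PHOT1 (Spo16482), the most abundant member after CRY1, had a log2 change of 0.39 (adjusted p = 0.42). With the common sum of FPKM the median of this list turned from 0.19 to -0.03. CRY1 lost its call without light 2 or dark 1 (adjusted p up to 0.0736) and UVR8 without light 2 (adjusted p = 0.0788). ELIP1 had no call in voom on recovered fragments (adjusted p = 0.0634).

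The light-harvesting antenna changed most in absolute level. All 22 members were tested, 13 were higher and 0 lower, and their median log2 change was 2.20. The called share was 59.1%, beside 8.45% of all genes. Their FPKM values summed to between 75820 and 97590 in the light and to 14610, 25400 and 5789 in dark 1, 2 and 3, which is 9.09, 11.1 and 8.2% of all FPKM in the light and 1.87, 3.21 and 0.886% in the dark. The antenna therefore made up a smaller share of the messenger pool in every dark plant than in every light plant, and its level in the dark was far from even. Leaving out dark 3 gave 12 members higher and a median of 1.62, and the common sum of FPKM gave 13 higher and 1 lower.

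A tandem pair on 1 scaffold changed most. Spo03025 and Spo03024 both carry the name of a spinach chlorophyll a-b binding protein, lie 7510 bases apart and point the same way. Spo03025 was at 1022, 1272 and 1619 FPKM in light 1 to 3 and at 3.27, 16.5 and 0.703 in dark 1 to 3 (log2 change 8.00, SE 0.63, adjusted p = 8.7e-08). Spo03024 was more abundant, at 6310.2, 9580.2 and 6329 against 44.6, 115 and 5.67 (log2 change 7.79, SE 0.74, adjusted p = 1.5e-06). LHCB3 (Spo10927), a subunit of the photosystem II trimers, was at 6236, 7421 and 5095 against 44.3, 191 and 7.16 (log2 change 7.22, SE 0.76, adjusted p = 5.3e-06). The CP24 gene (Spo25138), a minor antenna subunit that joins trimers to the core, was at 2541, 2940.2 and 2284 against 27.9, 115 and 14.4 (log2 change 6.11, SE 0.60, adjusted p = 1.9e-06). In all 4 genes the dark plants were ordered 2, 1, 3 from high to low, and the light plants lay close together. Without dark 3 the log2 changes were 7.21, 6.64, 6.05 and 5.47 in the same order, and all 4 calls held.

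The most abundant antenna messengers fell less steeply towards the dark. CAB36 (Spo05009, chromosome 2, 40662066 to 40662938 of Sp75) reached 13809.6, 18428 and 13877 in the light and 532, 2044 and 189.7 in the dark (log2 change 4.68, SE 0.67, adjusted p = 0.00022). LHCB4.1 (Spo26398), the CP29 subunit, was at 12143, 15539 and 11676 against 1807, 3910.2 and 458 (log2 change 3.14, SE 0.63, adjusted p = 0.0044). Photosystem I antenna genes among the calls, named here as members past the threshold and not by the naming rule, were LHCA4 (Spo08183, log2 change 3.31), LHCA1 (Spo16821, 2.92) and LHCA3 (Spo07501, 1.48). The 9 members without a call included LHCB5 (Spo01700), the 2 one-helix proteins and LHCB7 (Spo21057). Another gene named LHCB4.1 (Spo09766) also had no call, at a log2 change of 0.52 (adjusted p = 0.36). Reads shared between near-identical antenna genes could be split in counting, so values of single members are uncertain. Spo14399 and Spo11309, both called higher, each overlap a gene on the opposite strand, and no source used here gives the strand setting of the counting. LHCA3 lost its call without light 2 (adjusted p = 0.0518).

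The order of the dark plants was shared by most photosynthetic genes and by many histone genes. Among the antenna, 18 of 22 members (81.8%) ran dark 2, dark 1, dark 3 from high to low, as did 34 of 48 photosystem genes (70.8%) 14 of 25 chlorophyll genes (56%) and 20 of 38 histone genes (52.6%), against 3062 (18.1%) of all genes tested and 14 of 135 heat shock genes (10.4%). The median SD of log2 values was 0.92 across the dark plants and 0.22 across the light plants for the antenna, beside 0.28 and 0.24 over all genes. Dark 2 exceeded dark 3 by a median log2 of 1.81 in the antenna and 2.02 among histones, whose median SD was 1.27 in the dark and 0.78 in the light. These members share their libraries, so the order describes these 3 plants.

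**Figure D3:**
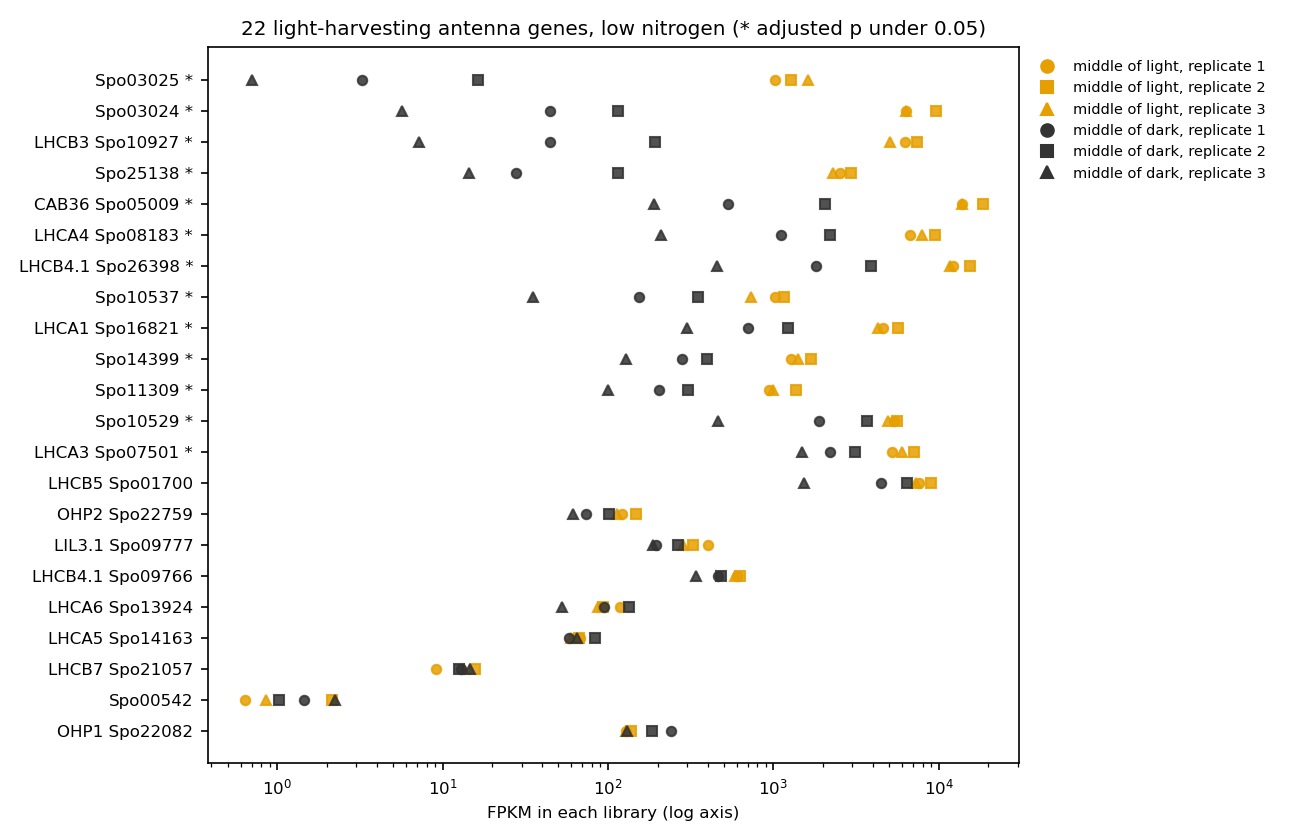
FPKM of the 22 antenna genes in each of the 6 LN libraries on a logarithmic axis, sorted by log2 change, with light plants in orange, dark plants in black and 1 marker shape per replicate number; asterisks mark the 13 genes past the threshold. The light plants cluster while the dark plants spread in the order 2, 1, 3 for most of the upper genes, and the lowest 5 genes overlap between light and dark.

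Core photosystem and electron transport genes moved the same way with smaller changes. Of 48 tested members 12 were higher and 0 lower (25% called, beside 8.45% of all genes), with a median log2 change of 0.53. Photosystem I supplied 7 of these calls. PSAN (Spo02453), a lumenal subunit, was at 1946, 2483 and 1973 in the light and 707, 1029.8 and 307 in the dark (log2 change 1.80, SE 0.40, adjusted p = 0.0091), PSAK (Spo20441) at 892, 1241 and 999 against 398, 469.8 and 153 (log2 change 1.75, SE 0.39, adjusted p = 0.009), and PSAH (Spo23141) at 700, 928 and 774 against 305, 356 and 137 (log2 change 1.69, SE 0.37, adjusted p = 0.008). The smallest adjusted p belonged to PPD3 (Spo25439), a PsbP-domain protein, at 216, 200.2 and 194 against 66.4, 108 and 77.3 (log2 change 1.30, SE 0.22, adjusted p = 0.00098). Among further members past the threshold was PSBS (Spo23712), the sensor of energy-dependent quenching, with a log2 change of 1.89 and no call in voom. The abundant subunits PSBR (Spo19908) and psbW (Spo02381) averaged 6579 ± 1090.1 and 6041 ± 1240.4 in the light and 3829 ± 1256 and 3148 ± 1253 in the dark, and neither passed (adjusted p = 0.17 and 0.1). The list's calls were sensitive to single dark plants, with 4 higher without dark 1 and 5 without dark 3, and 1 when the fit held only the compared groups. PSBS lost its call without light 1, 2 or 3 or dark 1 or 3 (adjusted p up to 0.147).

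In the list of chlorophyll synthesis and turnover 9 of 25 tested members were higher in the light, 0 lower, median 0.46. That is 36% called, beside 8.45% of all genes. Without dark 3, 8 were higher and 0 lower. The list also holds genes of chlorophyll breakdown, and the 9 include a breakdown enzyme at a log2 change of 1.02. HEMA1 (Spo19113), at the entry of the synthesis pathway, had a log2 change of 1.11, or 0.59 without dark 3. It lost its call in 12 of the 17 alternatives, voom and TMM among them. At the branch to chlorophyll, CHLH (Spo20716), the porphyrin-binding subunit of magnesium chelatase, was at 820.1, 983 and 674 in the light against 203, 276 and 59.4 (log2 change 2.44, SE 0.43, adjusted p = 0.0017), and its activator GUN4 (Spo20278) at 262, 255 and 255 against 29.6, 35.2 and 11.7 (log2 change 3.42, SE 0.38, adjusted p = 1.1e-05). A later enzyme, the cyclase named CRD1 (Spo05339), was at 919, 1042 and 787 against 206, 397 and 109.8 (log2 change 2.12, SE 0.39, adjusted p = 0.0021). A pair of genes named after protochlorophyllide reductase, the enzyme that needs light for its reaction, was higher. Spo19511 was at 1105, 1225 and 1115 against 151, 305 and 185 (log2 change 2.48, SE 0.33, adjusted p = 0.0001) and Spo18320 at 362, 318 and 134 against 11.1, 31 and 0.95 (log2 change 4.78, SE 0.93, adjusted p = 0.0036). Spo18320 spread much more between plants than Spo19511. CAO (Spo23714), which makes chlorophyll b, had a log2 change of 1.54. Another gene named CHLH (Spo00253) had a log2 change of 0.23 without a call (adjusted p = 0.66). HEMA1 lost its call without light 1, 2 or 3 or dark 3 (adjusted p up to 0.208) and CAO without light 2 or dark 3 (adjusted p up to 0.0562).

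Isoprenoid genes supply the phytol tail and the carotenoids. In the carotenoid and isoprenoid list 7 of 33 tested members were higher and 0 lower (21.2% called, beside 8.45% of all genes). With the common sum of FPKM 6 were higher and 3 lower (4 to 7 calls with 1 library left out). The gene of 1-deoxyxylulose-5-phosphate synthase (Spo13969), the entry of the plastid pathway, was at 358, 355 and 246 in the light against 75.8, 110.1 and 38.2 (log2 change 2.19, SE 0.35, adjusted p = 0.00061). ISPH (Spo03335), its last step, was at 314, 447 and 486 against 139.5, 192 and 164 (log2 change 1.31, SE 0.25, adjusted p = 0.0031). GGPS (Spo21523), which builds the geranylgeranyl chain, was at 277, 298 and 282 against 76.4, 97.4 and 129.8 (log2 change 1.52, SE 0.28, adjusted p = 0.0023). CHLP (Spo08176), which reduces that chain for chlorophyll, was at 1338, 1633 and 1314 against 363, 607 and 135 (log2 change 2.19, SE 0.42, adjusted p = 0.0033). In each of these 4 genes every light value was above every dark value, as in 14.0% of all genes tested. CHLP lost its call when the fit held the 6 compared libraries alone (adjusted p = 0.0697).

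Of 31 tested Calvin cycle genes 1 was higher and 0 lower, 3.23% against 8.45% of all genes, and the one was FBA2 (Spo18028), a plastid aldolase, at 109, 193 and 92.7 in the light against 1.14, 2.15 and 0.888 in the dark (log2 change 5.76, SE 0.53, adjusted p = 8.3e-07). CP12-1 (Spo17699), a redox switch that binds Calvin cycle enzymes in darkness, averaged 1482 ± 278 against 809 ± 36.9 and missed the threshold (log2 change 0.86, adjusted p = 0.077). The list's median was 0.14, and -0.11 with the common sum. Photorespiration had 0 calls among 21 members in limma and in voom (2 lower with the common sum, 0 to 1 calls with 1 library left out), with 3 at an unadjusted p under 0.05 in limma. Its most abundant gene, a peroxisomal glycolate oxidase (Spo19861), was at 3736, 4656 and 4696 in the light and 5165, 4954 and 3359.9 in the dark. Trehalose metabolism had 1 call in 15 (6.67%, 1 to 2 calls with 1 library left out). It was TPPD (Spo17896), which makes trehalose from its phosphate, at 28.8, 36.5 and 28.6 against 7.47, 11.8 and 8.24 (log2 change 1.68, SE 0.29, adjusted p = 0.0015).

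Starch synthesis had 3 of 13 members higher and 0 lower (23.1% called, beside 8.45% of all genes). The counts were 1 and 0 with the common sum of FPKM (1 to 3 calls with 1 library left out). WAXY (Spo25919), the granule-bound synthase that makes amylose, was at 74.7, 176 and 63.5 in the light against 9.93, 17.2 and 5.67 (log2 change 3.12, SE 0.66, adjusted p = 0.0066), and PGMP (Spo12928), the plastid phosphoglucomutase, at 70.9, 75.5 and 55.5 against 29.4, 45.8 and 25 (log2 change 1.02, SE 0.30, adjusted p = 0.042). SS3 (Spo04154), a soluble starch synthase, was at 33, 50.2 and 45.6 against 13.6, 17.5 and 31.2 (log2 change 1.07, SE 0.30, adjusted p = 0.033). ADG2 (Spo03597), a subunit of the enzyme that commits glucose to starch, averaged 94 ± 22.2 against 44.8 ± 24 and missed the threshold (adjusted p = 0.06). Another gene named WAXY (Spo01427) had a log2 change of -0.09 without a call (adjusted p = 0.93). PGMP lost its call without light 1, 2 or 3 or dark 1 or 3 (adjusted p up to 0.152) and SS3 without light 2 or 3 or dark 1 or 2 (adjusted p up to 0.187).

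Starch breakdown was mixed, with 2 of 30 members higher and 3 lower (16.7% called, beside 8.45% of all genes). The counts were 1 and 5 with the common sum of FPKM (3 to 6 calls with 1 library left out). BAM3 (Spo09720), the plastid beta-amylase that releases maltose at night, was at 8.96, 8.77 and 10.5 in the light against 78, 74.1 and 19.5 (log2 change -2.25, SE 0.53, adjusted p = 0.012), and another beta-amylase gene, BMY1 (Spo20576), at 5.98, 5.29 and 6.46 against 27.3, 15.8 and 11 (log2 change -1.37, SE 0.24, adjusted p = 0.0015). DSP4 (Spo30025), a phosphatase that opens the granule surface for amylases, was at 47.8, 71.7 and 77.3 against 110, 109.6 and 115 (log2 change -0.79, SE 0.18, adjusted p = 0.012). PHS2 (Spo03283), a cytosolic phosphorylase, was instead higher in the light, at 107, 156 and 120.3 against 68.2, 64.5 and 51.6 (log2 change 1.04, SE 0.23, adjusted p = 0.01). BAM3 overlaps another gene of that name on the opposite strand, Spo09756, whose log2 change was -0.54 without a call. BAM3 lost its call without dark 1 (adjusted p = 0.0798), DSP4 without light 1 (adjusted p = 0.0766) and PHS2 without light 2 (adjusted p = 0.0638). When the fit held the 6 compared libraries alone, BMY1 (adjusted p = 0.0623), BAM3 and DSP4 had no call.

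Genes of sucrose synthesis, cleavage and transport had 0 of 30 members higher and 4 lower (1 to 7 calls with 1 library left out). That is 13.3% called, beside 8.45% of all genes. The other 26 were not called, and the list's median log2 change was 0.01. SPS1 (Spo09591, chromosome 1, 20517220 to 20524770 of Sp75), sucrose-phosphate synthase of spinach and the control point of sucrose synthesis, was at 39.9, 59.5 and 53.1 in the light against 179.9, 149 and 95.9 in the dark (log2 change -1.43, SE 0.24, adjusted p = 0.0011). A pair of neighbouring genes named SUC4, a sucrose transporter, were at 16.5, 16.6 and 18.5 against 61.8, 40 and 37.9 (Spo07941, log2 change -1.36, SE 0.28, adjusted p = 0.0062) and at 10.5, 16 and 10.5 against 45.8, 24.4 and 26.7 (Spo07942, log2 change -1.29, SE 0.31, adjusted p = 0.013). A lesser sucrose-phosphate synthase gene (Spo07512) was at 5.12, 9.16 and 6.76 against 18.9, 10.8 and 10.2 (log2 change -0.82, SE 0.23, adjusted p = 0.032). The most abundant members, SWEET14 (Spo08934) and a cytosolic fructose-1,6-bisphosphatase (Spo19523), had log2 changes of -0.65 and -0.52 (adjusted p = 0.16 and 0.28). Spo07941 lost its call without dark 1 (adjusted p = 0.0501), Spo07942 without light 1 or dark 1 (adjusted p up to 0.0991) and Spo07512 without light 1 or 3 or dark 1 (adjusted p up to 0.204).

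Nitrogen assimilation had 3 of 41 tested members higher and 3 lower (14.6% called, beside 8.45% of all genes), with a median of 0.02. With the common sum of FPKM it had 1 higher and 7 lower and a median of -0.18 (1 to 9 calls with 1 library left out). Lower in the light were both called genes of NADH-dependent glutamate synthase, which draws electrons from NADH to make glutamate. GLT1 (Spo02549) was at 34.7, 23.8 and 25 against 158, 69.7 and 61.2 in the dark (log2 change -1.64, SE 0.30, adjusted p = 0.0022) and Spo22161 at 7.47, 6.25 and 5.7 against 20.8, 11.4 and 22.8 (log2 change -1.32, SE 0.34, adjusted p = 0.022). The ferredoxin-dependent enzyme FdGOGAT (Spo24580), which draws them from the photosystems, averaged 411 ± 36.4 in the light and 489.8 ± 84.4 in the dark (log2 change -0.24, adjusted p = 0.66), and plastid glutamine synthetase GLN2 (Spo06798) 786 ± 85 and 806 ± 277 (log2 change 0.02, adjusted p = 0.97). The third lower call was NLP9 (Spo10155), a nitrate-response factor, at 6.17, 5.22 and 5.45 against 10.4, 8.08 and 9.67 (log2 change -0.65, SE 0.19, adjusted p = 0.045). GLT1 overlaps Spo02482 on the opposite strand, which was also called lower at a log2 change of -1.05. Spo22161 lost its call without light 2 or 3 or dark 1 or 3 (adjusted p up to 0.104) and NLP9 without light 1, 2 or 3 or dark 1 or 3 (adjusted p up to 0.177). When the fit held the 6 compared libraries alone, GLT1 (adjusted p = 0.0611), Spo22161 and NLP9 had no call.

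The genes of nitrate reduction did not pass in limma. NIA (Spo23607), nitrate reductase, was at 359.9, 293 and 436 in the light and 1049, 460.4 and 256 in the dark (log2 change -0.48, adjusted p = 0.52). NIR (Spo21339), nitrite reductase, was at 198, 112 and 114 against 569, 378 and 138 (log2 change -1.18, adjusted p = 0.0527). NIR was called lower in 6 of the 17 alternatives, among them voom (adjusted p = 0.0395), the common sum of FPKM (adjusted p = 0.0131) and without dark 3 (adjusted p = 0.00126). Over the alternatives its adjusted p reached 0.302. Higher in the light were ammonium transporters named AMT1-3 (Spo21031), at 107, 81.7 and 124 against 7.77, 21.4 and 62.9 (log2 change 2.16, SE 0.60, adjusted p = 0.031), and AMT1-1 (Spo05791), at 15.3, 14.6 and 8.77 against 2.63, 4.76 and 4.65 (log2 change 1.46, SE 0.41, adjusted p = 0.033). ASN2 (Spo06720), an asparagine synthetase, was at 95.9, 70.6 and 72.3 against 44.7, 53.6 and 50 (log2 change 0.67, SE 0.17, adjusted p = 0.021). Without dark 1 the assimilation list held 0 higher and 1 lower. AMT1-3 lost its call without light 1, 2 or 3 or dark 1 or 2 (adjusted p up to 0.201), AMT1-1 without light 1 or 2 or dark 1 (adjusted p up to 0.161) and Spo06720 without light 1 or dark 1 (adjusted p up to 0.106).

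Among nitrate and peptide transporters 3 of 41 were higher and 1 lower, a called share of 9.76%, near the 8.45% of all genes. The counts were 3 and 3 with the common sum of FPKM (2 to 7 calls with 1 library left out). NPF4.6 (Spo25782), a nitrate and abscisic acid transporter in Arabidopsis, was at 15.4, 22.5 and 19.6 against 6.06, 7.26 and 6.34 (log2 change 1.40, SE 0.21, adjusted p = 0.0004). NPF2.13 (Spo25744), which exports nitrate from old leaves to young ones there, was at 73.4, 141 and 89.2 against 20.4, 33.5 and 31.7 (log2 change 1.77, SE 0.33, adjusted p = 0.0025). Sulfate assimilation had 0 of 23 members higher and 3 lower (13%), among them AKN (Spo19237), adenylyl-sulfate kinase, at 11.9, 16.3 and 17.6 against 24.2, 22.5 and 25.6 (log2 change -0.64, SE 0.17, adjusted p = 0.025). Without dark 1 that count was 0. AKN lost its call without light 1 or 2 or dark 1 or 3 (adjusted p up to 0.129).

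Heat shock and chaperone genes had 15 of 135 members higher and 7 lower (16.3% called, beside 8.45% of all genes). The counts were 15 and 14 with the common sum of FPKM (14 to 25 calls with 1 library left out). HSP70-4 (Spo17157, chromosome 1, 19616936 to 19620365 of Sp75) was at 86.9, 47 and 52.7 in the light against 0.49, 0.551 and 3.77 (log2 change 4.78, SE 0.73, adjusted p = 0.00048), another HSP70 gene (Spo06975) at 43.3, 28.9 and 42.1 against 0.308, 0.422 and 2.53 (log2 change 4.36, SE 0.58, adjusted p = 0.00011), and a small class I protein (Spo15173) at 33, 14.7 and 6.23 against 0.095, 0.619 and 0.31 (log2 change 3.57, SE 0.50, adjusted p = 0.00018). For the small protein the light plants spread widely, with light 1 the highest, and still lay above every dark plant. Abundant chaperones did not pass, as with HSC80 (Spo21597), an HSP90 protein, at a log2 change of 0.53 (adjusted p = 0.16). Of 69 genes of reactive oxygen defence 2 were higher and 3 lower (7.25%, beside 8.45% of all genes), and 2 and 8 with the common sum (1 to 6 calls with 1 library left out). APX1 (Spo03202), cytosolic ascorbate peroxidase, was at 360.3, 545 and 438 against 114, 158 and 191 (log2 change 1.54, SE 0.34, adjusted p = 0.0079), and thioredoxin F (Spo25803), which activates Calvin cycle enzymes with electrons from the photosystems, at 272, 320.3 and 421 against 100.1, 126 and 100 (log2 change 1.61, SE 0.27, adjusted p = 0.00089). APX1 lost its call without dark 1 (adjusted p = 0.0589).

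Flavonoid and phenylpropanoid genes had 6 of 61 members higher and 1 lower (11.5% called, beside 8.45% of all genes). The counts were 5 and 3 with the common sum of FPKM (3 to 7 calls with 1 library left out). CYP75B137 (Spo11399), a flavonoid hydroxylase, was at 58.1, 85.2 and 69.7 in the light against 19.7, 20.9 and 15.7 (log2 change 1.86, SE 0.32, adjusted p = 0.0012), and an anthocyanin acyltransferase gene (Spo13090) at 18.2, 32.1 and 7.69 against 0.332, 0.786 and 1.06 (log2 change 3.38, SE 0.63, adjusted p = 0.0025). Pathogenesis-related genes had 5 of 80 higher and 2 lower (8.75%), and 3 and 3 with the common sum (2 to 9 calls with 1 library left out). Chitinases EP3 (Spo13949) and CHIA (Spo13948) stand side by side and were at 74.2, 90.2 and 80.9 and 54.9, 70.9 and 50.2 in the light against 11.5, 3.63 and 25.1 and 10.2, 8.98 and 21.5 in the dark (log2 change 2.85 and 2.12, adjusted p = 0.0043 and 0.013). A defensin-like gene (Spo27249) was at 152, 563 and 360 against 67.8, 55 and 15.1 (log2 change 2.99, SE 0.61, adjusted p = 0.0053). CHIA lost its call without light 2 or dark 1 (adjusted p up to 0.0696). The defensin-like gene had no call when the fit held the 6 compared libraries alone (adjusted p = 0.0589).

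Hormone genes were called in both directions. The abscisic acid list, which includes the protein phosphatases 2C, had 7 of 67 members higher and 6 lower (19.4% called). The counts were 4 and 12 with the common sum (6 to 13 calls with 1 library left out). The largest change was a phosphatase gene of subfamily member 27 (Spo08588), at 11.6, 11.1 and 9.59 in the light against 0.674, 1.15 and 1.06 (log2 change 2.59, SE 0.30, adjusted p = 1.6e-05), and the receptor PYL5 (Spo18840) was lower, at 6.33, 10.7 and 14.5 against 50.6, 40.8 and 30.6 (log2 change -1.89, SE 0.31, adjusted p = 0.00089). Auxin genes had 3 of 101 higher and 2 lower (4.95%, beside 8.45% of all genes), and 2 and 7 with the common sum (2 to 5 calls with 1 library left out). SAUR36 (Spo11416) was at 10.5, 53.7 and 35.2 against 1.12, 1.12 and 0.842 (log2 change 3.81, SE 0.64, adjusted p = 0.0011), while the auxin-repressed gene Spo21332, a marker of dormant tissue in other plants, was at 24.5, 13.8 and 53.6 against 568, 361 and 189 (log2 change -3.63, SE 0.98, adjusted p = 0.027). Ethylene and dehydration response factors had 3 of 34 higher and 3 lower (17.6%, 1 to 9 calls with 1 library left out), from RAP2-7 (Spo16434, log2 change 1.61, SE 0.27, adjusted p = 0.0012) to ERF061 (Spo21370, log2 change -2.82, SE 0.63, adjusted p = 0.0093). NAC083 (Spo04911), at 24.6, 13.1 and 22.6 against 199, 90.8 and 47.3 (log2 change -2.23, SE 0.51, adjusted p = 0.01), was 1 of 2 calls among 46 WRKY and NAC genes (4.35%), both lower (5 with the common sum, 0 to 2 with 1 library left out). Spo21332 lost its call without light 1 or 2 or dark 1 or 2 (adjusted p up to 0.123), ERF061 without dark 1 (adjusted p = 0.0742) and NAC083 without light 2 or dark 1 (adjusted p up to 0.0793).

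Histone and ribosomal genes had smaller called shares than the 8.45% of all genes. Those of cell wall and cell cycle genes, 10.6% and 13%, were not far above it and varied with the library left out. Histones had 0 of 38 members higher and 1 lower (2.63%), the H2A variant gene Spo18943, although the list's median log2 change was 0.88, the second highest of the lists with at least 10 tested members. Histone values varied between plants, as given above, and the median was 0.51 without dark 1 and 0.42 without dark 3. Cytosolic ribosomal genes had 1 of 202 higher and 3 lower (1.98%), chloroplast ribosomal genes 0 of 44 in either direction by limma and by voom (1 at an unadjusted p under 0.05), and ribosome biogenesis 0 of 77 higher and 3 lower (3.9%), or 10 lower with the common sum. With 1 library left out these lists had 0 to 3, 0 and 1 to 4 calls and histones 0 to 2. In the cell wall list 8 of 113 were higher and 4 lower (10.6%), and 6 and 6 with the common sum (6 to 15 calls with 1 library left out), with PGIP1 (Spo27121), an inhibitor of pectin-degrading enzymes, at 11, 13.2 and 9.66 in the light against 1.04, 2.26 and 1.79 (log2 change 2.20, SE 0.26, adjusted p = 2e-05) and CESA6 (Spo07185), a cellulose synthase subunit, at 139, 156 and 116 against 56.7, 68 and 68.8 (log2 change 1.07, SE 0.21, adjusted p = 0.0045). Among 69 cell cycle and motor genes 6 were higher and 3 lower (13%), and 4 and 5 with the common sum (1 to 16 calls with 1 library left out). The clearest was KIN14A (Spo00500), a kinesin needed for chloroplast movement in Arabidopsis, at 81.5, 84.9 and 72 against 16.8, 23.9 and 25.1 (log2 change 1.83, SE 0.20, adjusted p = 7.2e-06). Spo18943 lost its call without dark 1 (adjusted p = 0.0663).

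**Figure D4:**
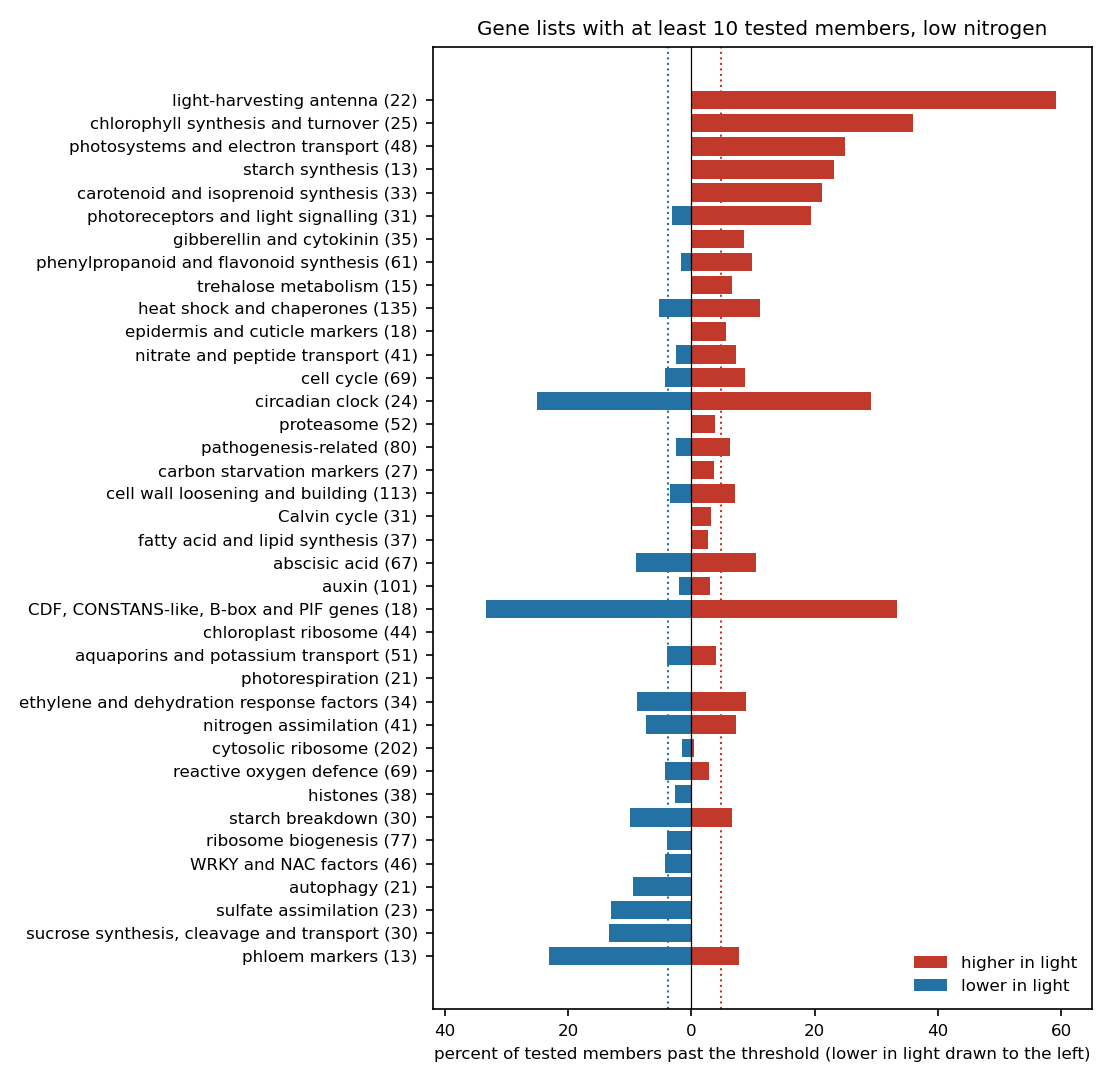
For each of 38 gene lists with at least 10 tested members (number in brackets), the percentage called higher in the light (red, to the right) and lower (blue, to the left); dotted lines mark the shares over all genes, 4.73% and 3.72%. Antenna, chlorophyll, photosystem and starch synthesis genes extend only to the right, sucrose and sulfate genes only to the left, and the clock list and the CDF, CONSTANS-like, B-box and PIF list in both directions.

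Among the largest changes were genes outside these lists. Creg2 (Spo07603, chromosome 1, 43643365 to 43646270 of Sp75), named after a mouse glycoprotein, was at 1737, 2468 and 1897 in the light against 14.1, 46.5 and 4.31 (log2 change 7.01, SE 0.57, adjusted p = 1.3e-07), with dark 2 highest and dark 3 lowest as in the antenna. PLT4 (Spo19512), a polyol transporter gene that lies 542 bases from the reductase gene Spo19511, was at 97.4, 54.2 and 52 against 0.65, 2.18 and 2.15 (log2 change 4.70, SE 0.41, adjusted p = 3.9e-07). Of the genes without a protein name, Spo15293 was at 73.4, 66.1 and 77.7 against 0.864, 2.26 and 1.29 (log2 change 4.93, SE 0.21, adjusted p = 1e-11) and Spo07302, the neighbour of LNK1, at 48.1, 41.8 and 48.4 against 1.05, 2.94 and 0.737 (log2 change 4.28, SE 0.25, adjusted p = 9.4e-10). Lower in the light were a polyphenol oxidase of spinach (Spo10760) at 1.25, 5.41 and 3.53 against 61.6, 98.2 and 41.9 (log2 change -4.0, SE 1.19, adjusted p = 0.042), glucose-6-phosphate dehydrogenase (Spo04898), which makes NADPH in the dark chloroplast, at 11.2, 4.08 and 4.67 against 63.7, 38.3 and 24.8 (log2 change -2.52, SE 0.40, adjusted p = 0.00062), and the zinc-finger gene FLZ2 (Spo11437) at 4.25, 6.08 and 5.66 against 27.7, 30.7 and 34.5 (log2 change -2.34, SE 0.28, adjusted p = 2.3e-05). The most abundant messenger of the table, the unnamed gene Spo06839, was at 32707, 33455 and 35511 in the light and 14268, 20266 and 36820.2 in the dark (log2 change 0.62, adjusted p = 0.4). Spo10760 lost its call without light 1, 2 or 3 or dark 1, 2 or 3 (adjusted p up to 0.138).

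Whether low nitrogen altered the light-dark change was tested as the LN change minus the HN change. No gene passed in limma or in voom on recovered fragments, with 1902 and 1907 of 16878 genes at an unadjusted p under 0.05 and a smallest adjusted p of 0.233 and 0.285. In HN 4265 genes (25.3%) were called, more than in LN, which by itself does not show a difference in response. Of the 799 genes higher in the LN light, 570 were called higher in HN, 1 lower and 228 not called, with median log2 changes of 1.19 in LN and 1.14 in HN. Of the 628 lower genes, 437 were called lower in HN, 0 higher and 191 not called, with medians of -0.91 and -0.81. These genes were chosen by their LN change, and the HN libraries entered the variance estimate behind the calls but not the contrast itself.

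Single genes with unequal changes are given as values, since none passed the test of the difference. The reductase gene Spo18320 was at 108, 124 and 331 in HN light and 61.5, 272 and 122 in HN dark, a log2 change of 0.37 against 4.78 in LN (adjusted p of the difference = 0.34). Spo03024 of the antenna was at 5789, 5746 and 7639.9 against 330.1, 750.2 and 505 in HN, a change of 3.66 beside 7.79 in LN (adjusted p of the difference = 0.27). For both genes the LN dark plants lay below the HN dark plants without overlap, while the light plants of the 2 nitrogen levels overlapped. Both genes were picked for their unequal changes, and the share of all genes with such a separation was not computed. A difference between LN and HN within the dark was not tested. The antenna as a whole made up 7.5, 7.86 and 11.2% of FPKM in HN light and 3.84, 5.34 and 4.37% in HN dark, and its median log2 change was 1.10 in HN and 2.20 in LN. CCD4 (Spo23358), which cleaves carotenoids, leaned the other way, at 659, 801 and 408 against 30.2, 20 and 15.3 in HN (4.77) and 178, 366 and 517 against 130.5, 85.8 and 68.6 in LN (1.81), with an adjusted p of the difference of 0.23. APS1 (Spo11735), ATP sulfurylase, had log2 changes of -1.21 in LN and 1.57 in HN, and PYRC5 (Spo06520), a reductase of phenylpropanoid metabolism, -1.70 and -0.24 (adjusted p of the difference = 0.24 and 0.23).

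**Figure D5:**
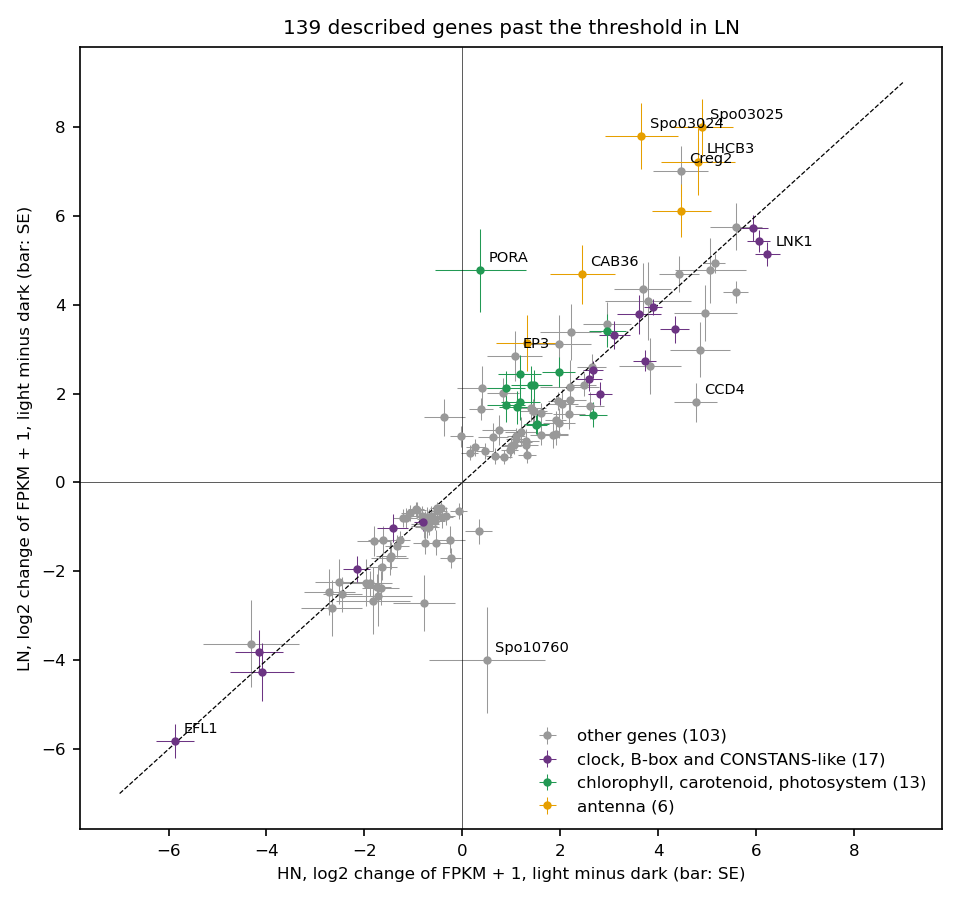
Log2 change (light minus dark) in LN on the y axis against HN on the x axis for the 139 genes of the naming rule that passed the threshold in LN; bars are standard errors and the dashed line marks equal changes. Clock genes lie along the line, the antenna genes lie above it, and PORA (Spo18320) and Spo10760 lie farthest from it, although 0 genes passed the test of the difference.

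Among markers of other cell types, the LN guard cell sums were separate between light and dark and the phloem sums only barely. Of single genes, 14.0% had every LN light value above every dark value and 14.4% every light value below. The 20 phloem markers summed to between 165 and 217.5 FPKM in the light and between 217.6 and 328 in the dark, with PP2B12 at 0. Of 13 tested 1 was higher and 3 lower (30.8% called, beside 8.45% of all genes, 0 to 6 calls with 1 library left out). The 5 guard cell markers summed to 19.9 to 31.5 in the light and 11.6 to 16.6 in the dark, with 1 of 3 tested higher. In HN both sums overlapped between light and dark. The HN guard cell sums were 9.253, 21.79 and 16.62 in the light and 18.75, 32.04 and 23.03 in the dark. The HN phloem sums were 239.2, 248.8 and 224.1 in the light and 311.7, 223.3 and 272.9 in the dark. The 29 epidermis markers (413.9 to 518.7 and 379.6 to 484.3), 14 xylem markers (38.8 to 61.8 and 23.2 to 87.6), 7 markers of dividing tissue (88.3 to 98.4 and 77.9 to 105.8) and 4 root markers (54.4 to 141.7 and 16.2 to 198.3) overlapped between light and dark. The root sums overlapped only through dark 3, at 198.3 beside 16.2 in dark 1 and 29 in dark 2. The part of phloem and guard cell content in the values above was not tested.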

How the data were processed

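Poly-A RNA of spinach leaves was sequenced from directional libraries, per the labels' protocols. The deposited values are FPKM made by the authors, with gene lengths and protein names in the same table. Per the submitters' processing notes the tools include HISAT2, RSEM and DESeq2 1.20.0, each without a stated role. The series title gives Sp75 as the genome. Every value was a whole multiple of 1 fragment (100.0% within 0.01), so fragments could be recovered; they number 18369094 to 25252705 over the 24 libraries, and single genes with few fragments are the least precise. No ID matched the reference gene table (0 matches), so names and coordinates are those of the deposited table, and 8616 genes below the filter were left out.

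The log2(FPKM + 1) values of all 24 libraries were fitted in limma (3.58.1, R 4.3.3) by 8 group means, which leaves 16 residual degrees of freedom. Variances were moderated with a mean trend, p-values were adjusted by Benjamini-Hochberg over 16878 genes, and a gene was called at an adjusted p under 0.05. The contrasts were LN light minus LN dark, the same in HN, and their difference. SE is the ordinary standard error of the contrast. Code was tested on simulated data. The 42 gene lists were written from protein names, and matching dropped 158 genes by name. The members and lists were chosen with earlier results of these data known, so their counts are descriptions. Genes named are all clock and nitrogen assimilation members, the 4 smallest adjusted p and 2 most abundant members of other lists (mean of 5 FPKM or more), the 12 highest and 12 lowest changes, the 10 smallest p of the difference and 2 unnamed genes in each direction. A few other members, called or not, are named after their values were seen. Alternatives covered the pseudocount, filters, scaling, moderation, the replicate block, voom on recovered fragments, and each library left out. Each p-value reflects only the spread among the sampled plants.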

Additional observations from a re-analysis of the deposited data

How the results depend on the processing

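Of 1427 genes called, 1266 were also called in the same direction among the 1345 of voom on recovered fragments. The call count was 494 (346 higher and 148 lower) when only the 2 compared groups entered the fit, 751 with a 2-fold minimum, and 491 to 1455 when 1 LN library was left out. The other alternatives gave 1245 to 2037 calls. The difference between LN and HN gave 0 calls under every alternative, except that leaving out 1 library gave 0 to 1, the 1 being At5g66980 (Spo18303) without HN dark replicate 1. Of 103 called genes named in the text, 60 passed under all 17 alternatives and 0 turned direction. Uncalled genes near 0 turned sign. GLN2 (Spo06798) was -0.23 with the common sum, -0.01 with TMM, -0.02 with voom and -0.30 to 0.22 with 1 library left out, and RBCS2 (Spo12437) was -0.03 with the common sum and -0.05 to 0.41 with 1 library left out. With 1 library left out, COL2 (Spo12296) ran from -0.47 to 0.25, Spo19861 from -0.22 to 0.09, EFL1 (Spo21006) from -0.18 to 0.13, LHCB7 (Spo21057) from -0.24 to 0.12 and NIA (Spo23607) from -0.95 to 0.06. The cause was not tested.

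Deviations of same-numbered LN light and dark plants correlated at 0.0459, 0.0819 and 0.306. Those of differently numbered plants correlated at -0.406 to 0.282. Whether the numbers mark pairs of plants was not tested. With the number as a replicate block the fit called 1245 genes, 707 higher and 538 lower, and 0 for the difference between LN and HN. With 3 plants in a group and 1 day of sampling, plant-to-plant spread limits what can be called.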

Other observations

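Some neighbouring genes were both called. Over all genes tested 8.45% were called, 4.73% higher and 3.72% lower. How many such pairs unlinked genes would give was not computed, so the counts are descriptions. Among 11264 pairs of tested neighbours, 131 had both genes called, 102 of them in the same direction and 29 in opposite directions, and 8 pairs carried the same protein name. On the same strand and within 200 bases of each other lay 910 tested pairs, of which 127 had at least 1 gene called and 21 had both, all 21 in the same direction. LNK1 and the unnamed gene Spo07302 form such a pair, with 125 bases between them, and PRR73 forms one with the unnamed Spo13064 at 51 bases. Whether neighbours this close share reads was not tested.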
